A study of Homo sapiens with 6 samples.

Results

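The RNA segments that co-purified with RBM8A and mapped to chromosome 17 were described from the deposited peak lists of 3 immunoprecipitates. Members were all peaks listed on chromosome 17, except those touching chr17:44372000-44672000, a stretch of the long arm that was set aside by position alone. They numbered 78, 118 and 109 in replicates 1, 2 and 3, which made 305 of the 5437 peaks in the 3 lists. Another 5 peaks of the chromosome (2, 1 and 2) touched the set-aside stretch and were left out of every comparison with the other sequences.

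The cells were AGS, an established human gastric adenocarcinoma line, labelled wild type, untreated and in normal growth, and all samples carried the same batch label. RNA immunoprecipitation followed by sequencing (RIP-seq) was run with an antibody to RBM8A, with 3 immunoprecipitates and 3 input RNA samples. Each immunoprecipitate had its own peak list, and the inputs had none among the files used here. The protocol describes lysis without a crosslinking step. The labels do not tie the replicates to separate cultures, so p-values measure the spread between these samples only, and part or all of that spread may be technical.

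RBM8A (Y14) belongs to the core of the exon junction complex, which splicing deposits on RNA. It binds MAGOH, and the pair locks the helicase EIF4A3 onto spliced messenger RNA just upstream of exon junctions. The complex then travels with the message to the cytoplasm, where it bears on export, translation and nonsense-mediated decay. A peak here is a stretch of the genome where fragments of the recovered RNA piled up above a local expectation, and it carries no strand. It does not show where on the RNA the protein sat.

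Peaks were spread over chromosome 17 at 0.964, 1.46 and 1.35 summits per Mb in replicates 1, 2 and 3, a mean of 1.26 ± 0.259 (SD, n = 3). A summit is the base of a peak with the deepest pileup of fragments. Chromosome 17 held 5.28%, 5.48% and 6.06% of the 3 lists. Replicate 2 had the most peaks on the chromosome, and replicate 3 the largest share of its list there. All positions are those of hg19, inferred from the sequence names in the lists, and are counted from 1.

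The short arm held 23, 35 and 22 summits and the long arm 55, 83 and 87. Per Mb, the short arm had 0.958, 1.46 and 0.917 summits and the long arm 0.967, 1.46 and 1.53. The long arm exceeded the short arm by 0.00836, 0.000489 and 0.613 per Mb, so the arms were almost equally dense in replicates 1 and 2 and the long arm was denser in replicate 3. The mean of these differences was 0.207 ± 0.351 per Mb (SD, n = 3), less than the spread between replicates (exact two-sided sign-flip permutation test, p = 0.25). With 3 replicates this test cannot give a p below 0.25, here or in any comparison that follows. Without replicate 3 the mean difference was 0.00442 per Mb, so the difference between arms rested on that list. It was 0.0837 with summits within 10 kb counted once, and 0.160 (p = 1, same exact test) with the centromeric bands left out of the lengths. With those bands left out, the short arm was the denser in replicates 1 and 2, and the long arm in replicate 3 only.

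Cytogenetic bands that stain light with Giemsa, which as a rule are richer in genes than dark bands, held 62.8%, 61.0% and 60.6% of the summits. They made up 51.2% of the length counted. Light bands had 1.18, 1.74 and 1.59 summits per Mb and dark bands 0.808, 1.28 and 1.20. In each replicate the light bands were denser, by 0.376, 0.458 and 0.397 per Mb, a narrow range beside the spread of the densities themselves. Both centromeric bands, p11.1 and q11.1, were empty in all 3 lists. Whether reads could be mapped in these bands was not examined, so their emptiness says nothing about the RNA.

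**Figure D1:**
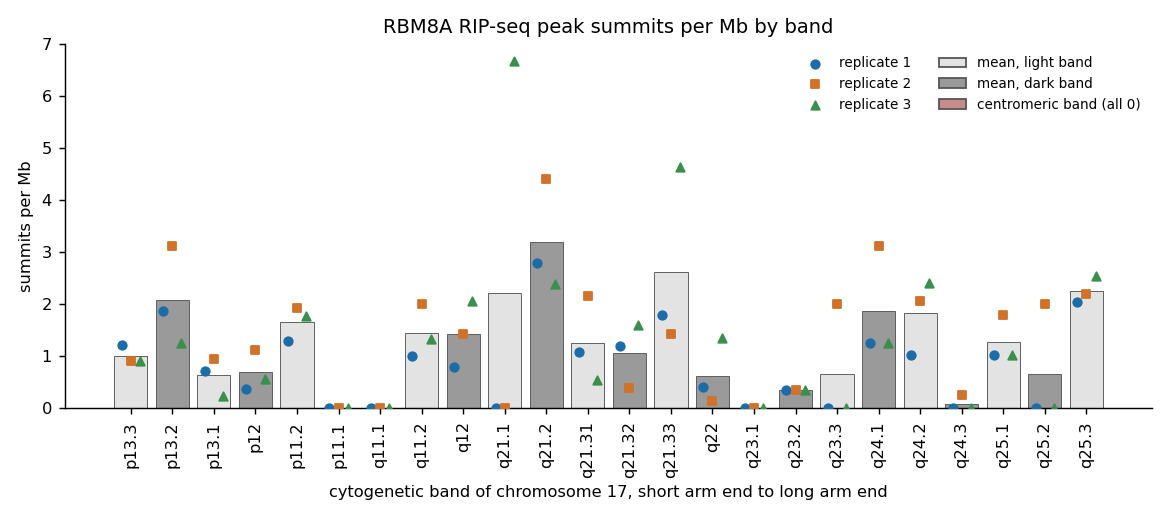
Peak summits per Mb (vertical axis) in each cytogenetic band of chromosome 17 (horizontal axis). Bars are means of 3 replicates, shaded by stain class, and points are the replicates. Band q21.2 has the highest mean, the 3 points of q25.3 lie close together, and the points of q21.33 and q22 lie far apart because replicate 3 stands above the other 2.

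Band q21.2, a dark band of 2.5 Mb, was dense in every list, with 2.8, 4.4 and 2.4 summits per Mb (mean 3.20 ± 1.06, SD, n = 3). Band q25.3, the light band at the end of the long arm, held the most summits in all, 12, 13 and 15. Its density of 2.26 ± 0.259 per Mb varied little between lists. Band p13.2 on the short arm had 1.88, 3.13 and 1.25 summits per Mb, and its highest value came from replicate 2. Band q21.33 had 1.79, 1.43 and 4.64, and q22 had 0.405, 0.135 and 1.35, so replicate 3 set the mean of both. The short band q21.1, 0.3 Mb long, had 2 summits in replicate 3 and none in the other lists. Band q23.1 was empty in all 3 lists, and the 3.8 Mb of q24.3 held 1 peak, in replicate 2.

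In windows of 1 Mb, 43, 37 and 40 of 82 windows held no summit in replicates 1, 2 and 3. The same windows were often empty: 26 had no summit in any list, 29 had at least 1 in every list, 12 in 2 lists and 15 in 1 list. The 26 include the windows from 22 to 25 Mb, which lie mostly in the centromeric bands. The longest run of windows empty in all 3 lists was 6 windows, from 9 to 15 Mb on the short arm. The 10 fullest windows by mean count held 46.2%, 40.7% and 48.6% of the summits.

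The fullest window lay from 38 to 39 Mb, mostly in q21.1 and q21.2, with 5, 6 and 6 summits. It was the most even of the full windows. The window from 17 to 18 Mb in p11.2 followed with 5, 7 and 3, that from 65 to 66 Mb in q24.2 with 3, 5 and 7, and that from 79 to 80 Mb in q25.3 with 4, 4 and 7. These 3 windows tied at a mean of 5 summits. The windows from 4 to 5 Mb (4, 7 and 3) and from 37 to 38 Mb (3, 6 and 5) had a mean of 4.67. The window from 56 to 57 Mb in q22 was the least even, with 3, 1 and 9. The last of the 10 were those from 27 to 28 Mb (3, 4 and 5), from 15 to 16 Mb (2, 6 and 3) and from 48 to 49 Mb (4, 2 and 5). At least 3 summits in every list were found in 7 windows.

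Summits stood in clusters, and the amount of clustering differed between lists. Clusters were not counted on the other sequences, so clustering is not shown to be a trait of this chromosome. When neighbouring summits up to 100 kb apart were linked, clusters of at least 3 summits numbered 7, 12 and 15 in replicates 1, 2 and 3. They held 32.1%, 44.1% and 61.5% of the summits (mean 45.9 ± 14.8%, SD, n = 3). Single summits with no neighbour that near numbered 35, 38 and 32, so lone summits were about as many in each list and the lists differed in their clusters. The median distance between neighbouring summits was 322, 137 and 83.0 kb.

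**Figure D2:**
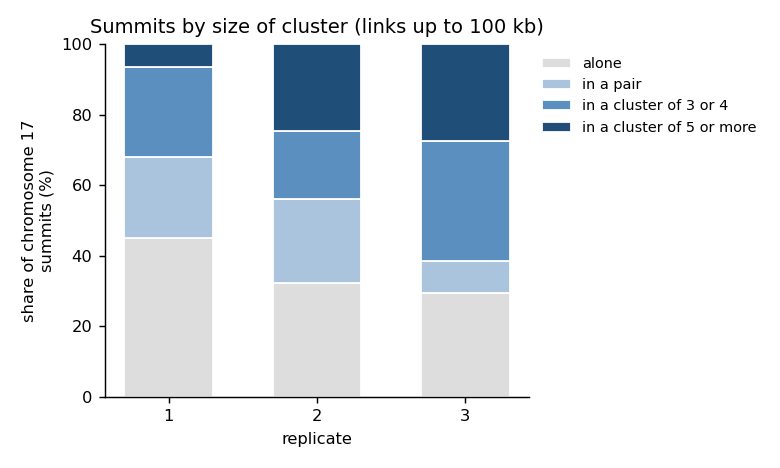
Share of chromosome 17 summits (vertical axis, percent) that stood alone, in a pair, in a cluster of 3 or 4 or in a cluster of 5 or more, for each replicate (horizontal axis), with summits linked up to 100 kb. The share standing alone falls from 44.9% in replicate 1 to 29.4% in replicate 3, and the share in clusters of 5 or more is 6.41%, 24.6% and 27.5%.

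The largest cluster of replicate 1 held 5 summits over 46.0 kb in p11.2, from 17034605 to 17080582, with pileups up to 7 fragments. Replicate 2 had its largest cluster at the same place, with 7 summits from 16949280 to 17079125 and pileups up to 11. Replicate 3 had 4 summits there, from 16979128 to 17083955. The cluster in p11.2 was therefore seen in every list and was made of shallow peaks in each.

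The largest cluster of replicate 3 was another, of 9 summits over 42.5 kb in q22, from 56450342 to 56492861, with a median pileup of 5 and a highest pileup of 7. Replicate 1 had 2 peaks over part of that stretch, of 5602 and 19450 bp, and replicate 2 had none. The next clusters of replicate 3 each held 7 summits. They lay in q12 from 36868541 to 37049781, in q21.33 from 49157127 to 49245892 and in q25.3 from 79802094 to 79891416. Their median pileups were 4, 4 and 8 and their highest 60, 18 and 31, so the clusters of q12 and q21.33 each joined a deep peak to shallow ones.

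In p13.2, replicate 1 had 4 summits over 118 kb from 4792049, and replicate 2 had 6 over 135 kb from 4791358, with highest pileups of 42 and 47. Replicate 3 had 3 summits there, with a highest pileup of 41. Replicate 1 had 4 summits in q11.2 with a highest pileup of 85, the deepest peak of the chromosome. Its other 4 clusters tied at 3 summits each, in q21.2 from 38546570 to 38651520, in q21.31 from 43190023 to 43196685, in q21.33 from 48146549 to 48157636 and in q25.3 from 79801883 to 79813420. Their highest pileups were 10, 9, 5 and 41. In replicate 2 the 5 largest were completed by 6 summits in q24.2 from 65822382 to 66034266, 5 in p12 from 15939862 to 15989663, and 5 in q24.1 from 63532570 to 63555001. The cluster in q24.1 had the highest median pileup of these, 13, with single peaks from 4 to 28 fragments.

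Part of this clustering was of peaks nearly touching each other. Gaps of under 1 kb between the end of a peak and the start of the next numbered 4, 14 and 26, or 5.19%, 12.0% and 24.1% of the gaps. The smallest gaps were 452, 364 and 416 bp. The lists do not say whether neighbours that close are separate sites. With summits of a list within 10 kb counted once, the mean count per list was 76.7 instead of 102.

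Peaks of chromosome 17 had median widths of 1438, 1396 and 2013 bp, against 1888, 1563 and 1803 bp on all other sequences. They were narrower than the others in replicates 1 and 2 and wider in replicate 3, with a mean difference of -136 ± 331 bp (SD, n = 3). That was less than the spread between replicates (exact sign-flip permutation test, two-sided, p = 0.75). The narrowest peaks were 409, 361 and 395 bp.

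Wide peaks, of at least 10 kb, numbered 4, 7 and 4, or 5.13%, 5.93% and 3.67% of the peaks of chromosome 17. On the other sequences they made up 11.5%, 8.20% and 9.34%. The share was lower on chromosome 17 in 3 of 3 replicates, with a mean difference of -4.77 ± 2.20 percentage points (SD, n = 3; exact sign-flip permutation test, two-sided, p = 0.25, the smallest it can give). Of the 5 peaks left out by position, 3 were at least 10 kb wide. With them counted, an alternative added after the data were seen, the shares were 6.25%, 6.72% and 4.50%, still below the others in each list.

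The widest peak by far was a single one of 240150 bp in q12, chr17:34500211-34740360, called in replicate 2 alone with a pileup of 7 fragments. The next widest were 36601 bp in p13.3 in replicate 1, and 35182 bp in p11.2 in replicate 2. Of the 15 wide peaks, 14 had pileups from 4 to 11. The exception was the peak of 17728 bp in q24.1 in replicate 2, with a pileup of 24. Low pileups were as common on the whole chromosome. Over all its peaks the median pileups were 6, 7 and 6, and 20.5%, 20.3% and 21.1% had at least 10. Another wide peak of q12 was called with almost the same ends in replicates 1 and 2, from 37034563 to 37046506 and from 37034560 to 37046711.

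The depth of a peak was read from its pileup, the number of fragments stacked at the summit, which was recovered as a whole number from the deposited fold and p for all 305 peaks. Median pileups were 6, 7 and 6 fragments, against 6, 6 and 6 on the other sequences. The difference was 1 fragment in replicate 2 and none in the other lists (exact sign-flip permutation test, two-sided, p = 1). Pileups of 4 or 5 fragments were found in 47.4%, 34.7% and 45.9% of the peaks, and pileups of at least 10 in 20.5%, 20.3% and 21.1%. Most peaks of the chromosome were thus a few fragments deep, and every list had a tail that reached 85, 78 and 68 fragments. On the other sequences, 23.9%, 25.5% and 24.4% of the peaks had a pileup of at least 10. Chromosome 17 had the lower share in each list, and this difference was not tested.

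Fold enrichment, the pileup plus 1 over the local expected level plus 1, had medians of 3.793, 3.801 and 3.958 on chromosome 17. On the other sequences the medians were 4.187, 4.157 and 3.972. The fold was lower on chromosome 17 in 3 of 3 replicates (differences of -0.394, -0.355 and -0.0139), with a mean of -0.254 ± 0.209 (SD, n = 3; exact sign-flip permutation test, two-sided, p = 0.25). In replicate 3 the medians were nearly the same. The expected level was within 0.5% of the lowest of the list for 53.85%, 42.37% and 39.45% of the chromosome's peaks. On the other sequences this held for 50.21%, 42.58% and 40.09%. At that level the fold follows from the pileup alone.

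Joining overlapping peaks of the 3 lists gave 217 regions on chromosome 17, of which 21 (9.68%) held peaks of all 3 replicates, against 12.2% of the 3366 regions on other sequences. Another 32 regions held peaks of 2 replicates and 164 of 1. The share found in all 3 was thus a little below that of the other sequences. In 20 of the 21 regions the 3 lists shared at least a base. The short arm held 7 of the 21 and the long arm 14, out of 54 and 163 regions.

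Counted by peak, 28.2%, 17.8% and 19.3% of the peaks of chromosome 17 were overlapped in both other lists, against 32.6%, 22.4% and 26.9% elsewhere. The difference ran the same way in 3 of 3 replicates, with a mean of -5.54 ± 1.83 percentage points (SD, n = 3; exact sign-flip permutation test, two-sided, p = 0.25). The size and direction depended on what counted as shared: the mean was -2.12 when the overlap had to cover 50% of both peaks, -0.766 for summits within 500 bp, and 1.55, with chromosome 17 the higher, for summits within 100 bp. With overlap in a single other list, it was -9.49 without replicate 1, -2.71 without replicate 2 and -8.11 without replicate 3.

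Recurrence went with depth on chromosome 17. The depth classes were not counted on the other sequences, so the pattern is not shown to be particular to this chromosome. Of the peaks with a pileup of 4 or 5, 2 of 37, 0 of 41 and 2 of 50 were overlapped in both other lists. Of those with 6 to 9, 24.0%, 15.1% and 13.9% were, and of those with at least 10, 87.5%, 54.2% and 60.9%. The means were 3.13 ± 2.81%, 17.7 ± 5.52% and 67.5 ± 17.6% (SD, n = 3), and the ranges of the 3 depth classes did not overlap. The classes were chosen after the data were seen, and overlap was not tested apart from width. Among the shallow peaks, 24 of 37, 34 of 41 and 32 of 50 were seen in their own list alone.

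**Figure D3:**
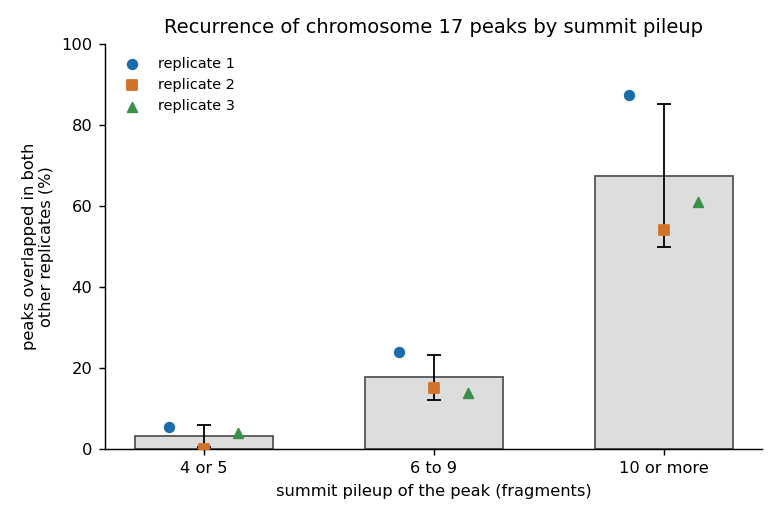
Share of chromosome 17 peaks overlapped by a peak in both other replicates (vertical axis, percent) by summit pileup (horizontal axis, fragments). Bars are means, error bars the SD over 3 replicates, and points the replicates. All replicates lie at or below 5.41% for pileups of 4 or 5 and at or above 54.2% for pileups of at least 10.

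The 21 recurrent regions are numbered here by the mean pileup of the best peak in each list. They are named by position and band, since no gene annotation of the same genome build was used. Pileups are given for replicates 1, 2 and 3, and expected levels and folds are in the same order.

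Region 1, chr17:27047776-27049354 in q11.2, was the deepest, with pileups of 85, 78 and 68 fragments (mean 77 ± 8.54, SD, n = 3). The 95% Poisson intervals of these pileups, which cover counting error only, were 67.9 to 105, 61.7 to 97.4 and 52.8 to 86.2. They overlapped, which does not show that the pileups were equal, and the read depth of the libraries is unknown. The expected level at the same place was 5.92, 14.6 and 25.5 fragments. Fold enrichment was accordingly 12.4, 5.08 and 2.60, and the −log10 q of the peak 62.8, 27.8 and 8.89. The region was deep in all 3 lists: its pileups spanned 1.25 times, its expected levels 4.31 times and its folds 4.78 times. Its summits lay within 101 bp of each other.

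Regions 2 and 3 both lay in q12. Region 2, chr17:37357487-37360830, had pileups of 59, 68 and 57, expected levels of 23.7, 16.9 and 29.1 and folds of 2.43, 3.86 and 1.93, and its 3 summits fell within 3 bp. Region 3, chr17:37006687-37009353, had pileups of 52, 63 and 60, with summits within 23 bp. Its expected levels of 27.1, 31.5 and 36.2 were the highest of the 21 regions, and its folds of 1.89, 1.97 and 1.64 were low. A deep pileup over a high expected level thus gave a smaller fold than shallow peaks over a low one.

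Region 4, chr17:4850112-4851800 in p13.2, was the deepest of the short arm, with pileups of 42, 47 and 41 and folds of 2.10, 3.33 and 1.83. Region 5, chr17:8281128-8282977 in p13.1, had pileups of 27, 38 and 34 and folds of 3.28, 2.18 and 2.45. Region 6, chr17:79801880-79802992 in q25.3, had pileups of 41, 25 and 31. Its expected levels of 21.6, 2.63 and 10.7 fragments spanned 8.20 times, the widest ratio of the 21 regions, and its folds were 1.86, 7.16 and 2.73. As in region 1, the folds spanned a wider ratio than the pileups.

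Region 7, chr17:63533658-63551385 in q24.1, had even pileups of 20, 24 and 22. It was the longest of the recurrent regions at 17728 bp, the extent of a single wide peak of replicate 2. Replicates 1 and 3 listed 2 narrower peaks each, which ended at 63542284 and 63542302. The rest of the region, up to 63551385, was covered in replicate 2 alone. Just before it, replicate 2 had a peak of its own at chr17:63531762-63533164, with a pileup of 28 over an expected level of 1.17. Its fold of 13.4 was the highest on the chromosome, and no peak of the other lists overlapped it. Region 8, chr17:72200527-72205183 in q25.1, had pileups of 19, 22 and 14 and folds of 5.05, 6.16 and 3.46, and its summits lay within 71 bp.

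Regions 9 and 10 lay in q21.33. Region 9, chr17:48462554-48465490, had pileups of 21, 11 and 20, with folds of 3.18, 3.07 and 3.75. Region 10, chr17:49244312-49247584, had pileups of 15, 19 and 18, with folds of 5.97, 2.33 and 3.11. Region 11, chr17:80017839-80018613 in q25.3, had pileups of 12, 17 and 11. It was the shallowest of the regions so far, and yet its folds of 5.73, 12.9 and 7.60 had the highest mean of the 21, 8.73 ± 3.70 (SD, n = 3). Its expected levels were 1.269, 0.3997 and 0.5786, its summits lay within 5 bp, and its −log10 q was 5.86, 19.7 and 8.61. The level of 0.3997 in replicate 2, where the fold was 12.9, was the lowest of that list.

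The other regions had mean pileups from 6.67 to 10.3. Region 12, chr17:1268535-1272976 in p13.3, had pileups of 9, 9 and 13, and region 13, chr17:20914491-20919161 in p11.2, had 8, 9 and 13. Region 15, chr17:38546469-38547773 in q21.2, had 10, 9 and 7. Region 16, chr17:17030111-17041478 in p11.2, had 5, 11 and 8, and belonged to the cluster that was the largest of replicates 1 and 2. Region 19, chr17:65919066-65924315 in q24.2, had 6, 9 and 7. In these shallow regions the Poisson intervals were wide (4.12 to 17.1 for a pileup of 9), and differences between lists were not tested.

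Some recurrent regions stood next to each other. Regions 6, 14 and 20 all lay in q25.3 between 79801880 and 79818147. Region 14, chr17:79813408-79818147, had pileups of 14, 10 and 6, and region 20, chr17:79806674-79813081, had 4, 6 and 12. The order of the replicates was opposite in these neighbours. Within each region the 3 Poisson intervals shared a value, although the pileups of region 20 spanned 3 times, so the intervals are too wide to decide the order. The order also depended on where the border between the regions fell. The highest pileup of region 14 had its summit at 79813420, in replicate 1, and that of region 20 at 79813069, in replicate 3. Regions 17 and 21 lay in p13.2, at chr17:4903592-4904150 and chr17:4908251-4910657, with pileups of 8, 7 and 7 and of 6, 8 and 6. Region 18, chr17:37034560-37046711 in q12, had 11, 7 and 4, and lay close to region 3. It was the only recurrent region with the expected level at the lowest value of the list in all 3 replicates.

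**Figure D4:**
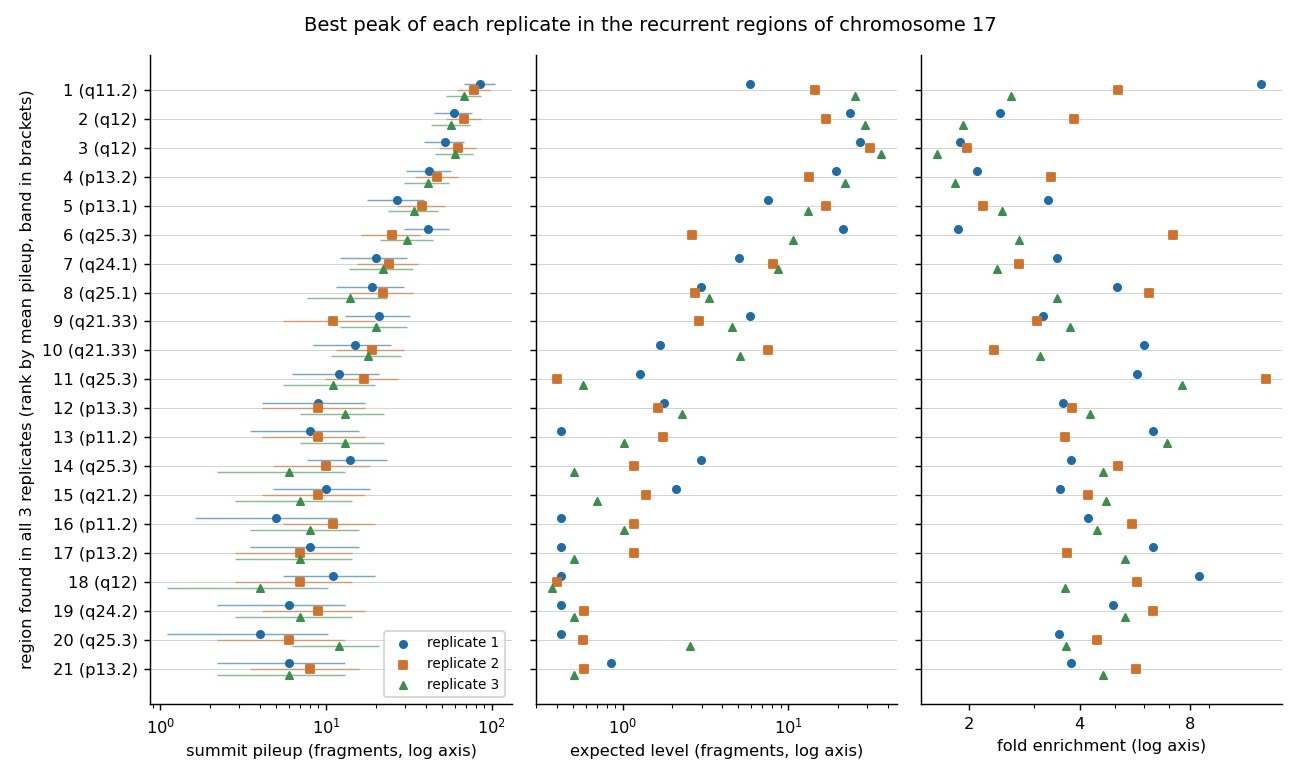
Summit pileup, expected level and fold enrichment (3 panels, log horizontal axes) of the best peak of each replicate in the 21 recurrent regions (vertical axis, rank by mean pileup with the band in brackets). Lines are 95% Poisson intervals of the pileup. The points of a region lie close together for the pileup and farther apart for the expected level, with median ratios of highest to lowest of 1.44 and 2.24.

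Over the 21 regions, the highest pileup was a median of 1.44 times the lowest, and at most 3 times. The expected level varied more, by a median of 2.24 times and up to 8.20, and its range was wider than that of the pileup in 17 of 21 regions. The fold varied by a median of 1.503 times and up to 4.78. In 21 of 21 regions the 3 Poisson intervals of the pileup shared a value. Most of these intervals are wide (1.09 to 10.2 for a pileup of 4), so this does not show that the pileups were equal.

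Ranks of the regions by pileup were alike between lists, with Spearman's rho of 0.89, 0.81 and 0.87 for replicates 1 and 2, 1 and 3, and 2 and 3. Those for the expected level were 0.84, 0.78 and 0.90. Ranks by fold were less alike, with 0.32, 0.54 and 0.46. These are descriptions over 21 regions that had to recur to be counted, and the peaks compared come from the same 3 libraries.

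Summits of the best peaks lay within 10 bp of each other in 2 of the 21 regions (regions 2 and 11), within 100 bp in 5 and within 500 bp in 8. The median distance between the outermost of the 3 summits was 638 bp. A region could therefore recur while its deepest base moved within it, as in region 16, where the summits spanned 4901 bp.

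Of all members, 17 had a pileup of at least 30, a limit chosen after the data were seen. They lay in q12 (6), p13.2 (3), q11.2 (3), p13.1 (2), q25.3 (2) and q21.2 (1), and 16 of them were in recurrent regions. These 16 were the best peaks of regions 1 to 6, counted once for each list that reached the limit, and not 16 separate places. The exception was a peak of replicate 2 at chr17:39681685-39684263 in q21.2, with a pileup of 38 over an expected level of 9.90, a fold of 3.58 and a −log10 q of 8.48. No peak of the other lists overlapped it.

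Other deep peaks seen in 1 list alone came mostly from replicate 2. Among the 10 deepest, 8 were of replicate 2 and 2 of replicate 3. At any depth, peaks overlapped in no other list numbered 35, 72 and 57 in replicates 1, 2 and 3. These were 44.9%, 61.0% and 52.3% of the chromosome's peaks in each list. Replicate 2 had the most of these too, and it also had the longest whole list (1480, 2155 and 1802 peaks). The matching shares on the other sequences were not counted. Replicate 3 had a peak of 29 fragments at chr17:79804471-79805376 in q25.3, between regions 6 and 20, and 1 of 18 at chr17:48823304-48823987 in q21.33. Replicate 2 had a peak of 18 fragments at chr17:70118982-70119414, the only peak of q24.3, and 1 of 17 at chr17:56434887-56435279 in q22. A place with no peak in a list is a place below the calling threshold there, and its level was not given.

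Peaks that passed the stricter limit of a −log10 q of at least 5 numbered 13, 14 and 14, or 16.7%, 11.9% and 12.8% of the chromosome's peaks. On the other sequences the shares were 13.1%, 15.8% and 17.2%. Chromosome 17 was above the rest in replicate 1 and below it in the other lists. Regions 1 and 11 were the ones in which all 3 best peaks passed this limit.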

How the data were processed

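RIP-seq peaks of 3 RBM8A immunoprecipitates of AGS cells were used as deposited, with a list per replicate. Per the submitters' processing notes, which give no role or order, the tools were FastQC, HISAT2, SAMtools, GATK and MACS2, and the build hg38. The sequence names in the deposited lists are those of hg19, and positions were taken as hg19. The control behind the expected level was not given in the sources used here. The deposited columns hold the fold enrichment (a ratio), the −log10 p and −log10 q, and a score, which was not used. Read depth is unknown.

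Summit pileup and expected level were solved from the deposited fold and −log10 p under a Poisson model, searching whole pileups up to 400 with a tolerance of 0.0005, and tested on simulated data. Bands came from the hg19 table in circlize 0.4.16, and lengths exclude the stretch set aside. Differences were taken within a replicate and tested by exact sign-flip permutation over 3 replicates. Overlap meant 1 bp. Named were the recurrent regions with their best peaks, the 10 fullest windows and the 5 largest clusters per list. Computations ran in scipy 1.17.1, pandas 2.3.3 and numpy 2.4.6 under Python 3.11.15, and figures in matplotlib 3.10.9. Poisson intervals (95%) cover counting error only.

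The members and the quantities described were chosen with earlier results of these data known. The stain difference, gaps under 1 kb, pileup classes, range and rank comparisons of regions, and the pileup limit of 30 were added after the values were seen. A planned count of target genes was not run, for want of a gene table of the same build. Alternatives were a −log10 q of at least 5, peaks under 10 kb, other windows, link distances and overlap rules, and leaving out each replicate.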

Additional observations from a re-analysis of the deposited data

How the results depend on the processing

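The p of every comparison with a test was 0.25 or more, as the 3 replicates cannot give less, so no call could be lost, and only values and directions could change. Of 67 alternative values, 11 moved past the spread between replicates, past 1.5 times or to 0, and 2 reversed. The other 54 kept the direction of their mean or, where a result had no direction, did not move past these limits. Several of the 54 changed greatly in size. The cause was not tested unless given here. Under a −log10 q limit of 5, the mean count per list was 13.7, the share in light bands 70.9%, the share in clusters of at least 3 summits 0% and the regions of all 3 replicates 2, from fewer peaks. Windows of 0.5 Mb, of 2 Mb and shifted by 0.5 Mb were empty in 70.1%, 30.1% and 53.9% of cases, against 48.8%. Smaller windows are emptier by construction, and the cause of the change with the shift was not tested. The difference in median pileup was 0 among peaks under 10 kb. The difference in recurrence was -2.12 percentage points for an overlap of 50% of both peaks. For summits within 500 bp it was -0.766, and for summits within 100 bp 1.55. It ranged from -9.49 to -2.71 when 1 replicate was left out. At the q limit its mean was -2.75, and replicate 2 turned the other way (-7.985, 0.267 and -0.5419). Requiring summits of all lists within 500 bp left 8 of the 21 regions. Leaving out 1 replicate gave 31 to 34 regions found in every list kept, since fewer lists had to share them. It gave differences in median width from -308 to 21.8 bp (the positive value without replicate 1) and in median pileup from 0 (without replicate 2) to 0.5 fragments. The arm difference ranged from 0.00442 (without replicate 3) to 0.31 per Mb, and was 0.0837 with summits within 10 kb counted once, 0.0427 at the q limit and 0.160 (exact p = 1) without the centromeric bands. Without those bands its sign turned in replicates 1 and 2. Among peaks under 10 kb, the difference in median width was -12.5 bp. No paired analysis was possible because the inputs had no peak lists among the files used here. Pileups of 4 to 7 fragments have wide counting intervals, and peaks below the calling threshold in a list were not given, which limits what absence from a list shows.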
